A study of Mus musculus with 8 samples.

Results

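The carnitine shuttle is described here by 7 genes, chosen by name as the clusters of the array whose gene symbol is Cpt1a, Cpt1b, Cpt1c, Cpt2, Slc25a20, Crat or Slc22a5, of 21160 genes in all. Transcript levels were measured on 8 Clariom S Mouse arrays of CD8 T cells of female mice, with 1 array per sample. Per the series' design text, naive cells were stimulated in vitro and kept for 48 h with an agonist of 1 PPAR isoform, and per the labels all cells were taken on day 2. The groups were the PPARa, PPARb and PPARg agonists and DMSO, the solvent, with 2 arrays each. All groups, DMSO included, were thus stimulated cells, and the sources used here do not name the agonists, their doses or the mouse strain. The 8 titles begin with 1 of 2 labels, and the 4 arrays that begin alike, 1 of each group, are called a set. What this label stands for is not stated.

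Long-chain fatty acids cannot cross the inner mitochondrial membrane as acyl-CoA, and the carnitine shuttle carries them in as acylcarnitines. Carnitine palmitoyltransferase 1, on the outer membrane, joins the fatty acid to carnitine and is the step that malonyl-CoA inhibits. A carrier in the inner membrane takes acylcarnitine in and carnitine out, and carnitine palmitoyltransferase 2 restores acyl-CoA for beta-oxidation. PPARs are nuclear receptors that bind fatty acids and switch on genes of lipid use, and Cpt1a is a known target gene of theirs in liver. In CD8 T cells, fatty acid oxidation is best known from the memory state, while recently activated cells rely largely on glucose.

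Cpt1a and Slc25a20 had the highest values of the 8 arrays on both PPARb agonist arrays, while the other 5 genes had no such pattern. The share of all genes with this pattern is not given here, so nothing is read from this count. The genes were chosen with the values between treatments already known, so differences between treatments are a description without a test. Values are log2 RMA values, where a difference of 1 is a 2-fold difference, and means are given ± SD with n = 2 arrays. They are compared within a gene only, because each gene has its own probes. In RNA of a whole culture, fewer cells that carry a transcript and less of it per cell cannot be told apart.

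Cpt1a (chromosome 19, 3323301 to 3385733, plus strand, build mm10) encodes the form of carnitine palmitoyltransferase 1 that is best known from liver and also serves lymphocytes. In set 1 it stood at 10.52 with the PPARa, 12.60 with the PPARb and 9.87 with the PPARg agonist, and at 10.11 with DMSO. In set 2 it stood at 11.86, 13.19 and 11.53 with the PPARa, PPARb and PPARg agonists, and at 11.46 with DMSO. Both PPARb agonist arrays lay above all 6 other arrays, and the 4 set 2 arrays lay above the set 1 arrays of the same treatments. The means were 12.90 ± 0.41 with the PPARb agonist and 10.79 ± 0.96 with DMSO, a log2 difference of 2.11 (SE 0.68, or 0.24 with set as a block), or 4.31-fold. Within the sets the difference from DMSO was 2.49 in set 1 and 1.72 in set 2, or 5.63-fold and 3.30-fold. The PPARb agonist also lay above the other agonists, by 2.09 in set 1 and 1.33 in set 2 over the PPARa agonist and by 2.74 and 1.65 over the PPARg agonist.

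The order of the Cpt1a levels was the same at the top in both sets, with the PPARb agonist first and the PPARa agonist next. The PPARa agonist lay 0.41 and 0.39 above DMSO in sets 1 and 2, a mean of 0.40 (SE 0.68, or 0.24 with set as a block). Both differences lay close to 0.33, the residual SD of a single array after set and treatment were taken out. A difference between 2 arrays varies more than a single array does. The PPARg agonist lay at -0.24 and 0.07 from DMSO, on both sides of 0 and within that SD. Among 12696 tested genes, the Cpt1a difference between the PPARb agonist and DMSO ranked 4 from the top as a mean, 3 in set 1 and 5 in set 2. For the PPARa agonist it ranked 413, and for the PPARg agonist 8293.

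Slc25a20 (chromosome 9, 108662098 to 108684641, plus strand) encodes the carrier that exchanges acylcarnitine for carnitine across the inner membrane. In set 1 it stood at 10.08, 11.55 and 10.05 with the PPARa, PPARb and PPARg agonists, and at 10.35 with DMSO. In set 2 it stood at 11.16, 11.63 and 10.33 with the same agonists, and at 10.79 with DMSO. The 2 PPARb agonist arrays lay within 0.08 of each other and above all 6 other arrays, the nearest being the PPARa agonist array of set 2. The means were 11.59 ± 0.06 with the PPARb agonist and 10.57 ± 0.31 with DMSO, a log2 difference of 1.02 (SE 0.34, or 0.23 with set as a block), or 2.03-fold. It was 1.20 in set 1 and 0.84 in set 2, and ranked 17 from the top as a mean, 21 in set 1 and 139 in set 2. The PPARa agonist lay at -0.27 and 0.37 from DMSO in sets 1 and 2, in opposite directions. With the PPARg agonist both values were below DMSO, at -0.30 and -0.46, and its 2 arrays lay below both DMSO arrays.

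**Figure D1:**
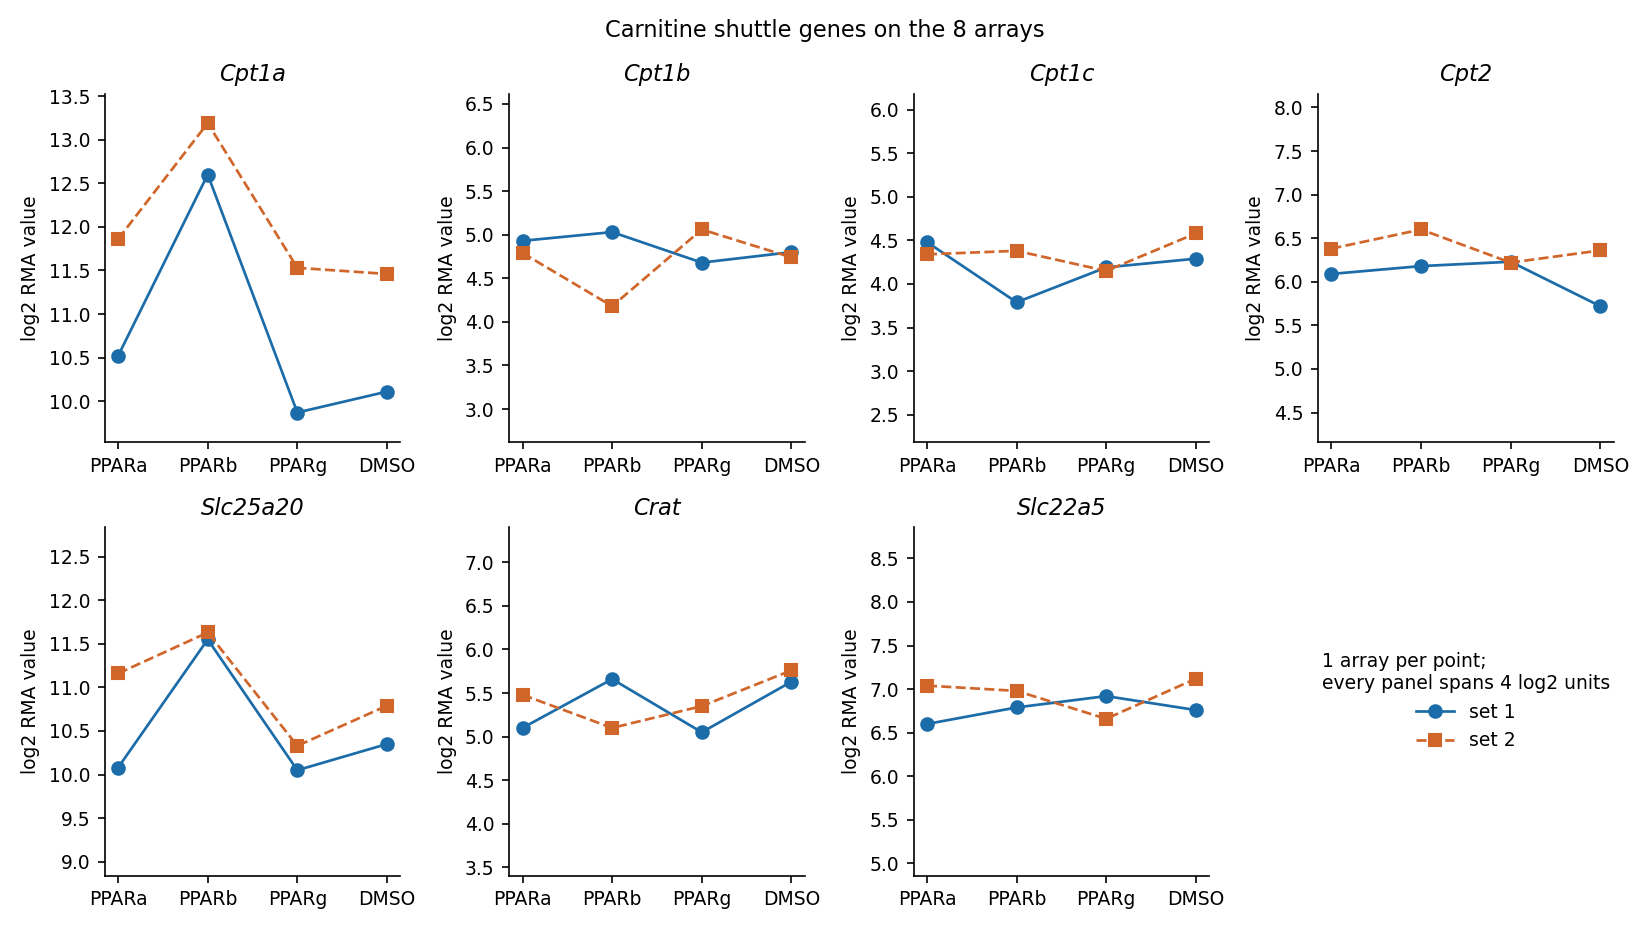
Log2 RMA value (vertical axis) of each of the 7 carnitine shuttle genes with the PPARa, PPARb and PPARg agonists and DMSO (horizontal axis), 1 point per array, with a line for each set and a span of 4 log2 units in every panel. Cpt1a peaks at 12.60 and 13.19 and Slc25a20 at 11.55 and 11.63 on the PPARb agonist arrays, and each of the other 5 genes spans less than 1 unit over the 8 arrays.

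The region before the start of these 2 genes is shown because their values lay high on the same arrays. Promoters are from RefSeq on build GRCm38.p6, whose table matched 5 of the 7 genes, Cpt1a, Cpt1c, Cpt2, Slc25a20 and Slc22a5. The 250 bases before each RefSeq start site are given 5′ to 3′ on the gene's strand. For Slc25a20 the array's annotation starts the gene earlier, at 108662098, inside the stretch printed. PPARs bind, together with RXR, to 2 copies of the element AGGTCA that are 1 base apart, written AGGTCANAGGTCA. Capitals mark an exact single element on either strand.
Cpt1a, chr19:3323051-3323300, plus strand: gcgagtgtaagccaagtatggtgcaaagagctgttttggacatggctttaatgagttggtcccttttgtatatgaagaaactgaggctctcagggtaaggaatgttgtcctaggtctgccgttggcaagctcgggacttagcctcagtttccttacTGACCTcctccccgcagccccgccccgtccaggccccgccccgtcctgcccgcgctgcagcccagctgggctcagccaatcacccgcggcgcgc
Slc25a20, chr9:108661886-108662135, plus strand: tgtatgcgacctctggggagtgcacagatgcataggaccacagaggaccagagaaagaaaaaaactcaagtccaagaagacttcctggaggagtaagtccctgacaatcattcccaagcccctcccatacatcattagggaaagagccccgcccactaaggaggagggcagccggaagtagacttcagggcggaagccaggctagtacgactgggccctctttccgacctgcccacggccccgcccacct
The Cpt1a stretch holds 1 such element, on the opposite strand, and the Slc25a20 stretch holds none.

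Over the full windows of 300 bases, 250 before and 50 after the start, none of the 5 promoters held the whole motif exactly on either strand, and 0.0396 percent of all 32851 promoters of the table did. With up to 2 mismatches over its 12 fixed letters it was found in 3.86 percent of all promoters and, among the 5, in that of Slc25a20. This stretch lies 7 to 19 bases downstream of the RefSeq start site (chr9:108662142-108662154, plus strand), with the letters that match in capitals.
Slc25a20 site: AGGTgAaAGGTCg
The best stretch of Cpt1a, Cpt1c and Slc22a5 had 4 mismatches each, and that of Cpt2 had 5. A single exact AGGTCA, which is part of the longer motif, was present in Cpt1a and Cpt1c, and in 16.3 percent of all promoters. The GC content of the windows was 62.3 percent for Cpt1a and 58 percent for Slc25a20, against a median of 52.7 percent over the table. A match of letters is a description and shows no binding. Sequence outside the windows was not searched, so the lack of a match does not show that a gene lacks such a site.

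Cpt2 (chromosome 4, 107903981 to 107923610, minus strand) encodes the inner membrane enzyme that completes the shuttle. It stood at 6.09, 6.18 and 6.23 with the PPARa, PPARb and PPARg agonists in set 1, and at 5.72 with DMSO. In set 2 the values were 6.38, 6.60 and 6.22 with the agonists, and 6.36 with DMSO. The PPARb agonist lay 0.46 and 0.24 above DMSO in the sets, a mean difference of 0.35 (SE 0.26, or 0.18 with set as a block), and the 2 groups overlapped, since the set 2 DMSO array lay above the set 1 PPARb agonist array. The low DMSO array of set 1 entered all 3 differences of that set, which were 0.38, 0.46 and 0.51 for the PPARa, PPARb and PPARg agonists. In set 2 they were 0.03, 0.24 and -0.14.

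Cpt1b and Cpt1c encode the other forms of carnitine palmitoyltransferase 1, known from muscle and from brain. Cpt1b (chromosome 15, 89416405 to 89425863, minus strand) averaged 4.78 over the 8 arrays and Cpt1c (chromosome 7, 44958484 to 44974851, minus strand) 4.27, both below 4.892, the lowest mean of a tested gene. Just above that limit among the 7 genes was Crat at 5.39. Cpt1b stood at 5.03 and 4.18 with the PPARb agonist, against 4.80 and 4.74 with DMSO, so that the agonist arrays lay on either side of DMSO. Cpt1c stood at 3.79 and 4.38 with the PPARb agonist, against 4.29 and 4.58 with DMSO, a mean difference of -0.35 with both sets below 0. Neither gene differed from DMSO by more than 0.56 with any agonist in either set. Their means stood at the 38.1 and 27 percentile points of all 21160 genes.

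Crat (chromosome 2, 30400471 to 30415813, minus strand) encodes carnitine acetyltransferase, which acts on short chains and buffers acetyl-CoA. It stood at 5.10 and 5.48 with the PPARa agonist in sets 1 and 2, at 5.66 and 5.10 with the PPARb agonist, at 5.05 and 5.35 with the PPARg agonist, and at 5.63 and 5.76 with DMSO. The arrays of the PPARa and of the PPARg agonist lay below both DMSO arrays, with mean differences of -0.41 and -0.50 (SE 0.25 each, or 0.23 with set as a block). These 2 differences use the same DMSO arrays. The PPARb agonist lay at 0.03 from DMSO in set 1 and at -0.67 in set 2, and the gap between its own 2 arrays was wider than the mean difference of -0.32.

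Slc22a5 (chromosome 11, 53864542 to 53891703, minus strand) encodes OCTN2, the carnitine transporter of the cell surface. It varied least of the 7 genes, between 6.60 and 7.12 over the 8 arrays. In set 1 it stood at 6.60, 6.79 and 6.92 with the PPARa, PPARb and PPARg agonists, and at 6.76 with DMSO. In set 2 it stood at 7.04, 6.98 and 6.66 with the agonists, and at 7.12 with DMSO. The mean differences from DMSO were -0.12, -0.05 and -0.15 for the PPARa, PPARb and PPARg agonists, each smaller than its SE of 0.23 (0.19 with set as a block). Within sets 1 and 2 the PPARg agonist lay at 0.16 and -0.47 from DMSO, in opposite directions. The residual SD of a single array, after set and treatment were taken out, was 0.22.

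**Figure D2:**
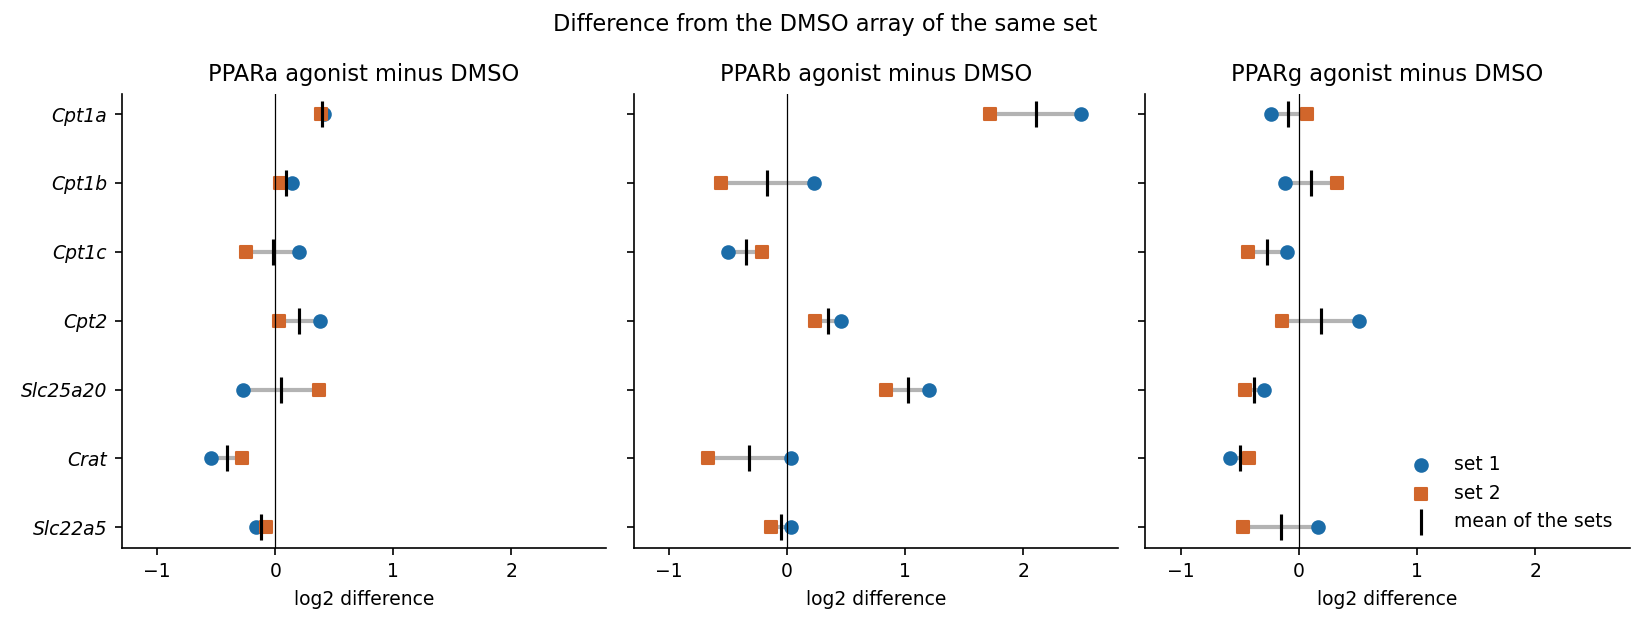
Log2 difference between each agonist and the DMSO array of the same set (horizontal axis) for the 7 carnitine shuttle genes (rows), with a circle for set 1, a square for set 2 and a bar at their mean. With the PPARb agonist Cpt1a lies at 2.49 and 1.72 and Slc25a20 at 1.20 and 0.84, and all other values in the 3 panels lie between -0.67 and 0.51.

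Of the 7 genes, 5 reached the level of the tested genes. limma, with Benjamini-Hochberg adjustment over 12696 genes, called 0 of these 5 with the PPARb agonist against DMSO, where 0.00788 percent of all tested genes were called. With set as a block it also called 0 of 5, where 0.0236 percent of all tested genes were called. At an unadjusted p under 0.05 there were 2 of the 5 in each fit, beside 298 of all 12696 tested genes without the block and 778 with it. Because these values chose the genes, nothing is read from these counts. The 1 gene called without the block, Rhob, was lost when any array of DMSO, of the PPARb agonist or of the PPARg agonist was left out. With the PPARa and with the PPARg agonist limma called 0 of the 5 genes in both fits, with 0 at an unadjusted p under 0.05, and 0 percent of all tested genes. Over all genes there were 225 with the PPARa and 276 with the PPARg agonist at an unadjusted p under 0.05, and 617 and 742 with the block. The median difference of the 5 genes was 0.05, 0.35 and -0.15 for the PPARa, PPARb and PPARg agonists, beside -0.02, -0.01 and -0.01 over all tested genes.

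**Figure D3:**
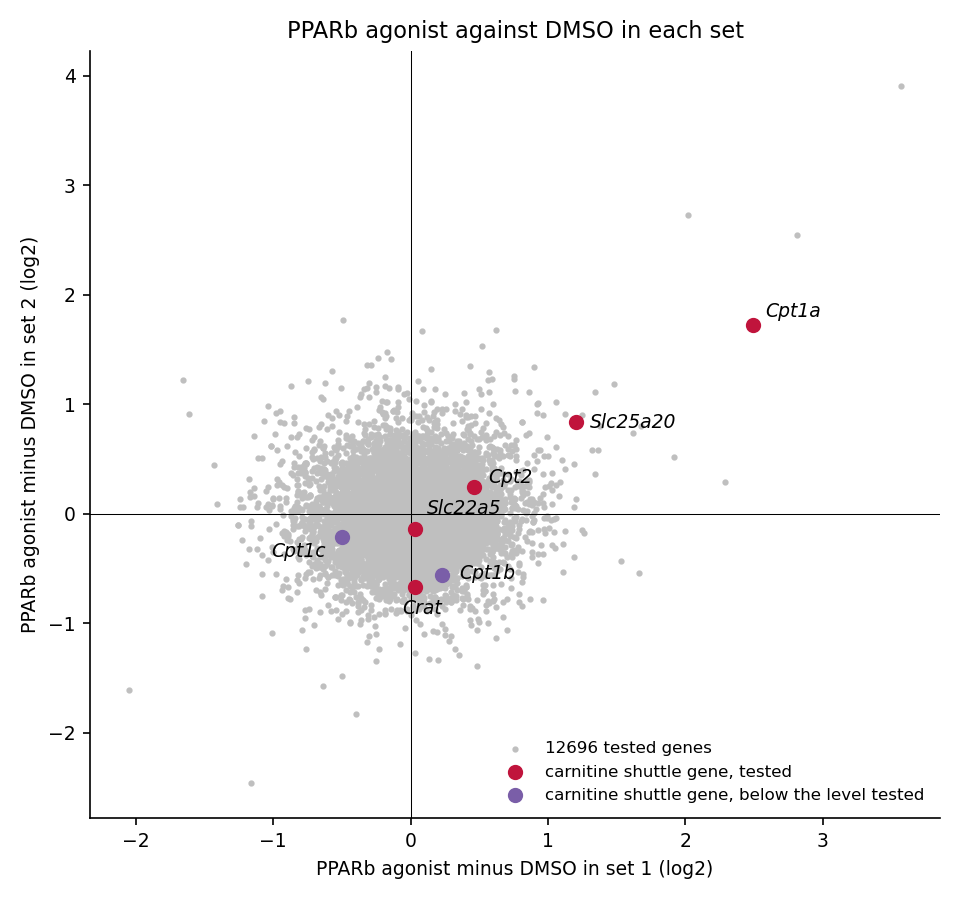
Log2 difference between the PPARb agonist and DMSO in set 1 (horizontal axis) and set 2 (vertical axis), with 1 point for each of 12696 tested genes in grey and the 7 carnitine shuttle genes coloured. Cpt1a lies at 2.49 and 1.72 and Slc25a20 at 1.20 and 0.84, Cpt1a with few points near it and Slc25a20 at the edge of the grey cloud, and the other 5 genes lie within the cloud.

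The difference between the sets was not used to choose the genes and could be tested, over 4 pairs of arrays with the same treatment. There are only 2 sets, and the 4 arrays of a set may not be separate replicates of what its label stands for. The p-values between sets therefore set the difference of these 2 sets against the spread of their arrays, and do not reach beyond them. The Cpt1a difference, set 1 minus set 2, was -1.34, -0.58 and -1.67 with the PPARa, PPARb and PPARg agonists, and -1.35 with DMSO. Its means were 10.77 ± 1.25 in set 1 and 12.01 ± 0.80 in set 2 (SD over 4 arrays of different treatments), a log2 difference of -1.23 (SE 0.17, limma adjusted p = 0.00567). Set 2 was thus 2.35-fold higher, in 4 of 4 treatments. The smallest gap was that of the PPARb agonist, whose 2 arrays were also the highest of their sets. Whether the treatment difference itself varies between sets could not be tested, with 1 array of each treatment in a set.

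Slc25a20 was also lower in set 1 with all 4 treatments, by a mean difference of -0.47 (SE 0.16), but did not pass (limma adjusted p = 0.0952). It passed with only genes above the 60th percentile tested (limma adjusted p = 0.0467) and with an intensity trend and robust variances (limma adjusted p = 0.0159). Cpt2 lay at -0.33 (SE 0.12) and was lower in set 1 in 3 of 4 treatments (limma adjusted p = 0.112). Slc22a5 and Crat lay at -0.18 and -0.06 (limma adjusted p = 0.398 and 0.832). limma thus called 1 of 5 genes lower and 0 higher in set 1, with 3 of 5 at an unadjusted p under 0.05, beside 4154 of all 12696 tested genes. Of all tested genes 7.25 percent were called lower and 9.74 percent higher in set 1, 2156 genes together. A single call among 5 genes is not set apart from that background. Leaving out any 1 of the 8 arrays brought the count over all genes to between 1053 and 1328. Cpt1a passed each time (limma adjusted p between 0.00615 and 0.0302). Leaving out either array of a treatment gave the same values, since its partner then has no pair, so these are 4 separate fits. Cpt1a did not pass in a limma fit with no treatment term (adjusted p = 0.162). Cpt1b and Cpt1c, below the level tested, lay at 0.17 and -0.17 with treatments in both directions.

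**Figure D4:**
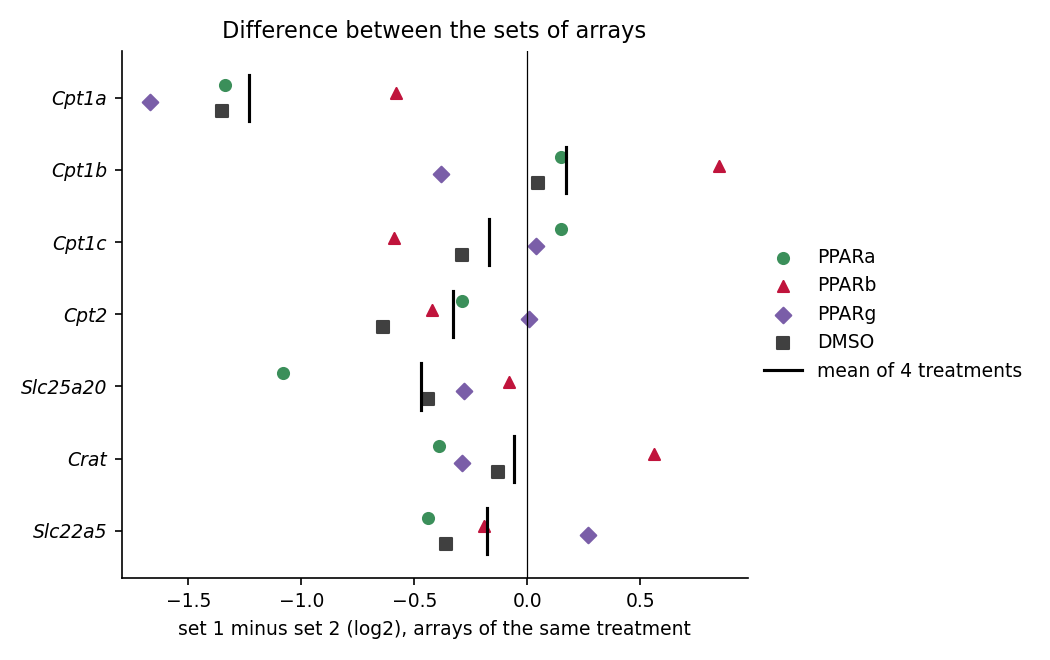
Log2 difference between set 1 and set 2 (horizontal axis) for arrays of the same treatment in the 7 carnitine shuttle genes (rows), with 1 marker for each treatment and a bar at the mean of the 4. All 4 markers of Cpt1a, from -1.67 to -0.58, and of Slc25a20 lie below 0, and those of the other genes fall on both sides.

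The pathway around the shuttle was followed in 4 lists of 52 genes, of which 43 were tested. limma called 0 of the 43 with the PPARb agonist against DMSO in either fit. Unadjusted p-values under 0.05 numbered 2 in the fit without the block, beside 298 of all 12696 tested genes, and 10 in that with set as a block, beside 778. The matrix enzymes of beta-oxidation and electron transfer, which receive what the shuttle delivers, had 13 of 17 tested members above 0, beside 47.5 percent of all tested genes, with a median of 0.10 beside -0.01. In both sets alike, 6 of the 17 lay above 0, beside 23.7 percent of all tested genes, and 4 below, beside 26.7 percent. The other 7 differed in sign between the sets. The highest was Acadvl, the first dehydrogenase for very long chains, at 12.21 and 12.92 with the PPARb agonist and 10.86 and 11.81 with DMSO, a difference of 1.23 (SE 0.16 with set as a block). Etfdh, which passes the electrons to ubiquinone, lay at 0.78, the thiolase gene Acaa2 at 0.65 and the 3-hydroxyacyl dehydrogenase gene Hadh at 0.42, each above 0 in both sets. The same genes lay between -0.06 and 0.13 with the PPARa and PPARg agonists. Hadha and Hadhb, whose proteins form the trifunctional enzyme for long chains and which are named here after their values were seen, lay at -0.06 and 0.07 with the PPARb agonist. The 17 members thus ranged from -0.20 to 1.23.

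Malonyl-CoA, which inhibits carnitine palmitoyltransferase 1, is made by acetyl-CoA carboxylases and removed by malonyl-CoA decarboxylase. Of the 9 tested genes of this control, 3 lay above 0 with the PPARb agonist and 6 below, between -0.21 and 0.05. Acaca, the main carboxylase of fatty acid synthesis, lay at 0.05, with 0.19 and -0.08 in sets 1 and 2. Acacb, the carboxylase at the outer mitochondrial membrane, lay at -0.17, with -0.65 and 0.32 in the sets. Mlycd, the decarboxylase, lay at -0.21, with -0.37 and -0.05. The gamma subunits of AMP-activated protein kinase, which inhibits the carboxylases, lay at -0.15 for Prkag1 and -0.20 for Prkag2, and Fasn, the fatty acid synthase, at -0.13.

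Acyl-CoA, the substrate of the shuttle, is made by acyl-CoA synthetases and held by binding proteins. Of 11 tested genes of this list, 5 lay above 0 and 6 below with the PPARb agonist, with a median of -0.03. The long-chain synthetase gene Acsl1 stood at 6.49 and 5.66 with the PPARb agonist, against 6.96 and 6.35 with DMSO. Its differences from the shared DMSO arrays were -0.61, -0.58 and -0.59 with the PPARa, PPARb and PPARg agonists. Slc27a1, a fatty acid transport protein with synthetase activity, lay at -0.52 with the PPARb agonist and at 0.02 and 0.03 with the PPARa and PPARg agonists. The acyl-CoA binding genes Acbd4 and Acbd5 lay at -0.57 and -0.34.

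Carnitine itself is taken up or made from trimethyllysine, and of 6 tested genes of its supply and of peroxisomal export 3 lay above 0 and 3 below with the PPARb agonist. Tmlhe, the first enzyme of carnitine synthesis, stood at 9.26 and 9.62 with the PPARb agonist, against 8.77 and 9.35 with DMSO. Its differences from the shared DMSO arrays were 0.39, 0.38 and 0.39 with the PPARa, PPARb and PPARg agonists. Aldh9a1, a dehydrogenase of the same synthesis, lay at 0.30, and Slc16a9, linked in human to carnitine efflux, at 0.33. The organic cation transporter gene Slc22a4 lay at -0.40.

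**Figure D5:**
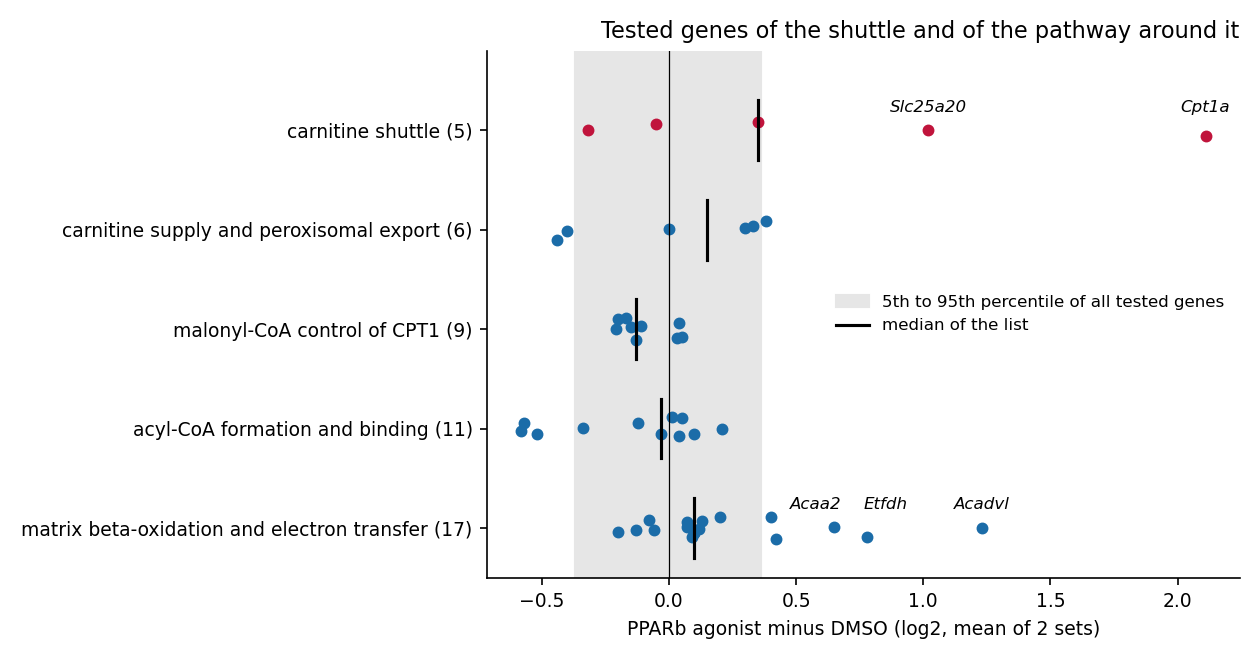
Log2 difference between the PPARb agonist and DMSO, as the mean of 2 sets (horizontal axis), for the tested genes of the carnitine shuttle (red) and of 4 lists around it (blue), with the number tested in brackets, a bar at each median and a grey band from the 5th to the 95th percentile of all tested genes (-0.37 to 0.36). Cpt1a at 2.11, Acadvl at 1.23 and Slc25a20 at 1.02 are the points farthest to the right.

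Between the sets, the matrix list had 6 of 17 tested genes called lower and 0 higher in set 1 by limma, or 35.3 percent, beside the 7.25 percent called lower among all tested genes. Its median was -0.27, and 2 of its 17 genes lay above 0, beside 49.5 percent of all tested genes. The 6 were Acadvl at -0.66, Acadl, a long-chain dehydrogenase, at -0.65, Acaa2 at -0.61, Eci2, an isomerase, at -0.61, Etfdh at -0.58 and Acad11, another dehydrogenase, at -0.47 (limma adjusted p between 0.00688 and 0.0269). The count was 4 or 5 with 1 array left out. In the list of carnitine supply 2 of 6 were called lower, Crot, the peroxisomal carnitine octanoyltransferase, at -0.65 (limma adjusted p = 0.0101) and Tmlhe at -0.43 (limma adjusted p = 0.0251). Fasn at 1.17 (limma adjusted p = 0.00123), Acsl6, a long-chain synthetase, at 1.03 (0.00294) and Acsl1 at 0.80 (0.00397) were higher in set 1. The lists share arrays with all other results, and no test of a list as a whole was made.

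List means of some markers of other cell types also differed between the sets. The mean of the 4 measured CD4 T cell markers was 9.27, 9.05 and 9.29 with the PPARa, PPARb and PPARg agonists and 9.32 with DMSO in set 1, against 8.75, 8.67, 9.12 and 8.92 in set 2. It was thus higher in set 1 with all 4 treatments. This mean joins genes of unlike values, with Cd4 from 7.46 to 9.15 over the 8 arrays and Ctla4 from 15.86 to 16.11. The mean of the 4 NK cell markers lay between 6.45 and 6.76 on the set 1 arrays, against 6.87 to 7.21 on the set 2 arrays. The sets thus did not overlap. Of these markers, Ncr1 and Klrb1c lay below the level tested. Klrk1, which activated CD8 T cells also express, ranged from 7.81 to 10.34 over the 8 arrays, and Eomes from 10.08 to 10.98. The list mean therefore does not measure NK cells alone. The mean of the 2 measured erythroid markers, both below the level tested, was also higher in set 1 with all 4 treatments. The CD8 T cell marker mean differed between the sets by less than 0.1 with each treatment. The part of these markers in the set differences of Cpt1a and of the lists was not tested.

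The genes most like Cpt1a were sought by Pearson's r over the 8 arrays after the mean of each set was taken out, among 773 other tested genes whose values then spanned at least 1 log2 unit. Of these, 14 (1.81 percent) had an r of at least 0.9. The 8 highest with a name were Hilpda (0.98), Igsf23 (0.97), Rhob (0.97), Mt2 (0.94), Tbx21 (0.94), Frmd4b (0.94), Plin2 (0.94) and Slc25a20 (0.92). Hilpda, an inhibitor of lipid breakdown at the lipid droplet, lay 1.48 and 1.18 above DMSO with the PPARb agonist in the sets, and 0.42 with the PPARa agonist as a mean. Plin2, a coat protein of lipid droplets, lay at 3.57 and 3.91 with the PPARb agonist, and at 0.15 with the PPARa agonist. Spearman's rho of the 8 genes was between 0.52 and 0.93. The points share arrays and sets, and the values describe these arrays only. Cpt1a was chosen with its values between treatments known. A gene can also reach the span of 1 log2 unit through the PPARb agonist arrays alone. A high r can thus rest largely on those arrays, and for Plin2 the r was 0.94 and the rho 0.52. Nothing is therefore read from the count of genes with a high r.

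Among the 7 genes themselves, the same r was 0.92 for Cpt1a with Slc25a20 and 0.50 and 0.44 for Cpt2 with each of these. It lay between -0.57 and 0.45 for all other pairs, and for Cpt1a with Slc22a5 it was 0.02. Cpt1a and Slc25a20 were both highest on the PPARb agonist arrays, so nothing further is read from their r of 0.92.

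The list mean of the CD8 T cell markers lay between 14.57 and 14.70 on the 8 arrays. Cd8a, which encodes the alpha chain of CD8, lay between 16.48 and 16.73, and Cd3e, a chain of the T cell receptor complex, between 16.92 and 17.11. Prf1, of the same list, lay between 6.59 and 7.66. Of the B cell markers, the defining genes Cd79a, Ms4a1 and Pax5 lay below the level tested, at differences of 0.16, 0.02 and 0.00 between the PPARb agonist and DMSO. Cd79b lay at -0.34, H2-Aa at -0.16 and H2-Ab1, an MHC class II gene, at 1.04. The 4 NK cell markers had a mean of 6.76 and 7.21 with the PPARb agonist, against 6.47 and 6.87 with DMSO, with 3 of 4 above 0. Ncr1 and Klrb1c among these lay below the level tested, and Klrk1, which activated CD8 T cells also express, lay at 0.53. Eomes, also tested, lay at -0.33. The 4 measured CD4 T cell markers had a mean of 9.05 and 8.67 with the PPARb agonist, against 9.32 and 8.92 with DMSO. Of these, 0 of 4 lay above 0, beside 47.5 percent of all tested genes. Cd4 itself lay at -0.51, Zbtb7b at -0.35, Cd40lg at -0.17 and Ctla4 at -0.01. Of the 7 macrophage or dendritic cell markers, 2 lay above 0 and 1 was tested, and their list mean was 4.33 and 4.32 with the PPARb agonist, against 4.55 and 4.41 with DMSO. The neutrophil or mast cell list stood at 4.96 and 4.98 with the PPARb agonist, against 4.70 and 4.95 with DMSO. Of the 2 measured erythroid markers, 0 were tested and 0 lay above 0, with a median difference of -0.19. Of the 6 adipocyte or hepatocyte markers, 2 were tested, and the list mean was 4.44 and 4.34 with the PPARb agonist, against 4.44 and 4.48 with DMSO. limma called 0 of the 23 tested markers with the PPARb agonist against DMSO in either fit, and the part of other cell types in the Cpt1a and Slc25a20 values was not tested.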

How the data were processed

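Per the labels' protocols, biotin-labelled DNA was made from 100 ng of total RNA per sample with a WT PLUS kit. The deposited values are log2 RMA values from Expression Console, per the labels. RMA corrects the background, makes the arrays' distributions alike and summarises the 10 probes of a cluster, so a shift shared by most transcripts is removed. Per the file headers, the annotation is na36 on mm10. The deposited linear intensity columns equalled 2 to the power of the log2 values to 1.5e-06 and were not tested. The deposited workbook and value matrix agreed to 5.0e-07. Array medians lay between 5.64 and 5.72 and maxima between 19.01 and 19.16. No source used here gives the scaling behind such maxima, and folds assume plain log2 units.

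Of 22206 clusters, 21371 name 1 gene. By entrez ID, 20395 matched the RefSeq table of GRCm38.p6, and 899 symbols were updated. The cluster with the highest mean was kept per gene, which left 21160 genes, and the 12696 with a mean at or above the 40th percentile (4.892) were tested. limma 3.58.1 in R 4.3.3 fitted the 4 group means over all 8 arrays, two-sided, with Benjamini-Hochberg adjustment and a threshold of 0.05 (4 residual and 3.754 prior degrees of freedom). A second fit had set as a block. Arrays were paired by the first part of their titles, and the differences between sets correlated at 0.496 to 0.550 in the 6 pairs of groups. The sets were compared with treatment as a term. The fit was tested on simulated data. Tables used pandas 2.3.3 and numpy 2.4.6 under Python 3.11.15, and plots matplotlib 3.10.9.

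The 7 genes and all lists were chosen with earlier results of these data known. Genes outside the 7 were named by a rule, namely the genes past the threshold and up to 4 per list with the largest difference of one sign in both sets between the PPARb agonist and DMSO. Added to these were Acaca, Acacb and Mlycd, and the 8 genes most like Cpt1a. Whether the 2 arrays of a group stem from separate mice or cultures is not stated. The p-values therefore reflect only how much these arrays vary, and that spread may be technical. The number of arrays limits the precision. Alternatives were the block, no filter or a filter at the 60th percentile, an intensity trend with robust variances, equal array medians, the mean of a gene's clusters, the value matrix, no treatment term and leaving out each array. One item of the B cell marker list, and the list's mean, are not reported here.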

Additional observations from a re-analysis of the deposited data

How the results depend on the processing

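In all 222 values under the alternatives named above, the log2 differences of the 7 genes from DMSO moved by less than an SD. This was the SD between the 2 arrays of a group, pooled over the agonist and DMSO, and it includes the difference between the sets. The outcome was largely fixed in advance and is no measure of stability. Leaving out 1 array cannot move a difference by more than that SD, and the block, filter and variance settings leave it unchanged. With 1 array left out, which unbalances the sets, the Cpt1a difference from DMSO ranged from 1.43 to 2.78 with the PPARb agonist, -0.28 to 1.08 with the PPARa agonist and -0.92 to 0.75 with the PPARg agonist. The alternative with the block and 1 array left out was chosen after the data were seen, and there the Slc25a20 difference ranged from 0.76 to 1.28, which moved it without either PPARb agonist array. For the PPARb agonist against DMSO, limma called 1 gene, 3 with the replicate block, 0 after filtering at the 60th percentile, and 0 to 1 with 1 array left out. The replicate block moved no other call of a comparison with DMSO, and the 43 pathway genes gave 0 calls under every alternative. Between the sets, 2156 genes were called, 1228 without a filter on low values, 3238 with the intensity trend and robust variances, and 1053 to 1328 with 1 array left out. Of the tested shuttle genes, 1 was called between the sets, 2 with the 60th percentile filter or with the trend and robust variances, where Slc25a20 also passed (adjusted p = 0.0467 and 0.0159), and 0 with no treatment term, where Cpt1a did not pass (adjusted p = 0.162). The treatment differences are then part of the spread. The matrix list had 6 genes called lower in set 1. It had 3 with no treatment term, 5 without a filter on low values and 9 with the intensity trend and robust variances. The Crat difference between the sets, which was not called, ranged from -0.27 to 0.05 with 1 array left out. It was 0.05 without either PPARa agonist array and 0.02 without either PPARg agonist array. With 2 arrays per group, small differences of the genes near the lowest level tested cannot be resolved.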
